A study of Mus musculus with 9 samples.

Results

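The 40 genes described here carry out mitosis and cytokinesis, the phase of the cell cycle in which the duplicated chromosomes are condensed, captured by the spindle, pulled apart and enclosed in 2 daughter cells. They were taken as a named list of genes of the spindle, kinetochore, checkpoint and cytokinesis machinery and matched by symbol, and all 40 were found among the 54532 genes of the count tables. The list was chosen with earlier results of these data known, so its counts beside the shares of all genes only describe it. Their transcripts were measured by RNA-seq in the mouse sublingual gland, a mucous salivary gland under the tongue, in 3 groups of 3 libraries from wild-type (WT) animals. The control group received no radiation, and the day of its collection is not stated in the sources used here. The day 7 and day 14 groups received 10 Gy of radiation and were collected 7 and 14 days after it. Strain, sex, age and the way the dose was given are not stated in the sources used here. RNA came from 4 sections, each 50 µm thick, and nothing in the labels says whether the 3 libraries of a group came from separate animals, and the p-values therefore reflect variation among these libraries, part or all of which may be technical. A section of gland holds many cell types, and more cells in mitosis cannot be told apart from more of these transcripts per cell.

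In a dividing cell, transcription of these genes climbs from S phase into G2 and mitosis and is shut down again in G1 and in resting cells. In resting cells the DREAM complex, made of the MuvB core proteins, the pocket proteins Rbl1 or Rbl2 and a repressor E2F, keeps them silent through a promoter element called the cell cycle genes homology region (CHR). In dividing cells the MuvB core instead joins Mybl2 and Foxm1 and activates them, together with the factor NF-Y, which binds CCAAT boxes nearby. In the adult salivary gland few cells divide, and the acinar and duct cells that make up most of the tissue turn over slowly.

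Promoter sequences are shown first, because the 40 genes are known for a shared promoter layout. RefSeq promoter windows (GRCm38.p6, 250 bases before to 50 bases after the annotated start) were matched by symbol for 33 of the 40 genes, with 37 windows since some genes have more than 1 start. No window was listed for Foxm1, Ccna2, Cdc25c, Tpx2, Aurkb, Incenp and Kif20a. The 5 sequences below are the 250 bases before the start of the genes with the largest day 7 change among those with a mean of at least 2 CPM (counts scaled by library size) and a motif match before the start. They are written 5′ to 3′ on the strand of the gene, and the capitals mark matches to CCAAT, to the CHR forms TTTGAA and TTCGAA and to the E2F form TTGGCGC, each read on either strand.
Ccnb1, chr13:100786487-100786736, minus strand: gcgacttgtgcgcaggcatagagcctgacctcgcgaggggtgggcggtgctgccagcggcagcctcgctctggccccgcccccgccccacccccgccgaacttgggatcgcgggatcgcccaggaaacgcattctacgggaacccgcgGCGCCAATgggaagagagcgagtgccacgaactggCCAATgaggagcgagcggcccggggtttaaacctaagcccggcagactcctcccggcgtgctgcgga
Top2a, chr11:99024190-99024439, minus strand: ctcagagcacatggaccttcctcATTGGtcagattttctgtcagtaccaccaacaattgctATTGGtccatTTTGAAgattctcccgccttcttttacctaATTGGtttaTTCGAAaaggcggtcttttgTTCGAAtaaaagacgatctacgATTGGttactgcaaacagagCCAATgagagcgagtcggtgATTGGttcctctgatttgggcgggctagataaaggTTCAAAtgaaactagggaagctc
Mki67, chr7:135716380-135716629, minus strand: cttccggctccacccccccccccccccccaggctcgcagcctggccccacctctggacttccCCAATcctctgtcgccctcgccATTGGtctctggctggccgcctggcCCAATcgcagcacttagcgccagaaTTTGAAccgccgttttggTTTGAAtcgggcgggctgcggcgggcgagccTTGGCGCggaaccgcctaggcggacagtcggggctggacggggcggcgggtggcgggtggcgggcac
Cenpf, chr1:189688087-189688336, minus strand: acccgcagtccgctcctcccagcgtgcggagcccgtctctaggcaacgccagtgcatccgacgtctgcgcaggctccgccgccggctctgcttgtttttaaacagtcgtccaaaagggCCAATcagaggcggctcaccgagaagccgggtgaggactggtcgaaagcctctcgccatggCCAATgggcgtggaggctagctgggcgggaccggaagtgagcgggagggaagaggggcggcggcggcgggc
Kif11, chr19:37376132-37376381, plus strand: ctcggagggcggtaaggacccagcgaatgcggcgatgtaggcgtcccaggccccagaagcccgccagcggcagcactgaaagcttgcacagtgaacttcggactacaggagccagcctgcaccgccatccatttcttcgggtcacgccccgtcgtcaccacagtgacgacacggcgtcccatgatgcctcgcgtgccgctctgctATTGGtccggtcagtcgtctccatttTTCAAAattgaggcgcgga
The Top2a window held 6 CCAAT boxes and 4 CHR matches. The Mki67 window held 3 CCAAT boxes, 2 CHR matches and an E2F match. In Ccnb1, the E2F match at position -102 and the CCAAT box at -99 overlap in the letters GCGCCAAT, and no CHR match to these letters was present in its window. Kif11 had a CCAAT box at -45 and a CHR match at -19.

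Many CHR matches lay just after the start rather than before it. The 6 windows of 30 bases below are centred on such matches, for the genes with the largest day 7 change among those with a mean of at least 2 CPM and a CHR match soon after the start, and the capitals mark the CHR.
Cenpf, chr1:189688067-189688096, minus strand: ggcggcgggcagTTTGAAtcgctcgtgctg
Racgap1, chr15:99651634-99651663, minus strand: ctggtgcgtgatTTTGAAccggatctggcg
Kif23, chr9:61946780-61946809, minus strand: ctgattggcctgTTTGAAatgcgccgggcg
Hmmr, chr11:40733412-40733441, minus strand: agttgaggtaaaTTTGAAttcaggcgagct
Ect2, chr3:27153822-27153851, minus strand: cgactggattttTTTGAAtcggaggcggca
Ccnb2, chr9:70421533-70421562, minus strand: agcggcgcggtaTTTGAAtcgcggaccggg
The first base of the CHR stood at position 3 in Cenpf and Kif23, 5 in Ccnb2, 6 in Racgap1, 9 in Hmmr and 16 in Ect2, counted from 1 at the first base of the transcript.

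Over all 37 windows of these genes, a CHR in either form was present in 30 (81.1%), against 19.2% of all 32851 RefSeq mouse windows of the same 300 bases. The TTTGAA form accounted for 27 windows (73%, against 17.9% of all windows) and the TTCGAA form, which reads the same on both strands, for 5 (13.5%, against 1.56%). A CCAAT box was present in 31 windows (83.8%, against 37.4%), and 21 windows (56.8%, against 11.7%) had 2 or more. A CHR and a CCAAT box occurred together in 27 windows (73%, against 7.52%). An E2F match, TTCCCGC or TTGGCGC, was present in 5 windows (13.5%, against 6.81%), all of the TTGGCGC form. These shares are descriptions of letters in a window and say nothing on whether a factor was bound. Counted by gene, 24 of the 33 genes had both elements, and Nuf2, Nusap1 and Birc5 had neither in this window.

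**Figure D1:**
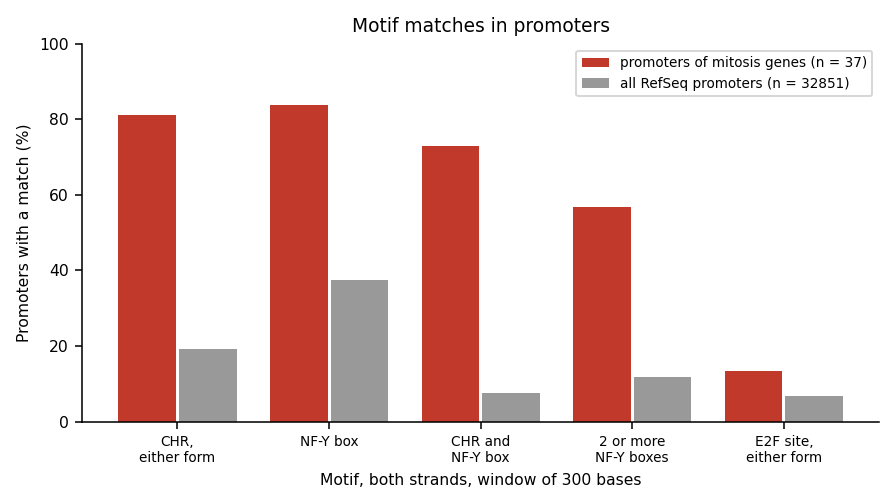
Percentage of promoter windows of 300 bases with a match, for 37 windows of the mitosis and cytokinesis genes and for all 32851 RefSeq mouse windows. The CHR was found in 81.1% of the former and 19.2% of the latter, and the CHR together with a CCAAT box (NF-Y box) in 73% and 7.52%.

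Pooled over the windows, CCAAT boxes and CHR matches also differed in position. Matches were counted per window, and where windows of the same gene overlap, as in Ect2, Prc1 and Psrc1, a site is counted in each. The 72 CCAAT matches had a median position of -69.5, 41 of them lay 150 to 31 bases before the start, and 2 lay after the start. The 41 CHR matches had a median position of -5, 29 of them lay within 50 bases of the start on either side, and 20 lay after it. By these medians the CHR matches lay nearer to the start than the CCAAT boxes, as in Kif11 above. Their order within each window was not counted, and in Top2a and Bub1b some CHR matches lay further upstream than CCAAT boxes. Positions over all RefSeq windows were not counted either.

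**Figure D2:**
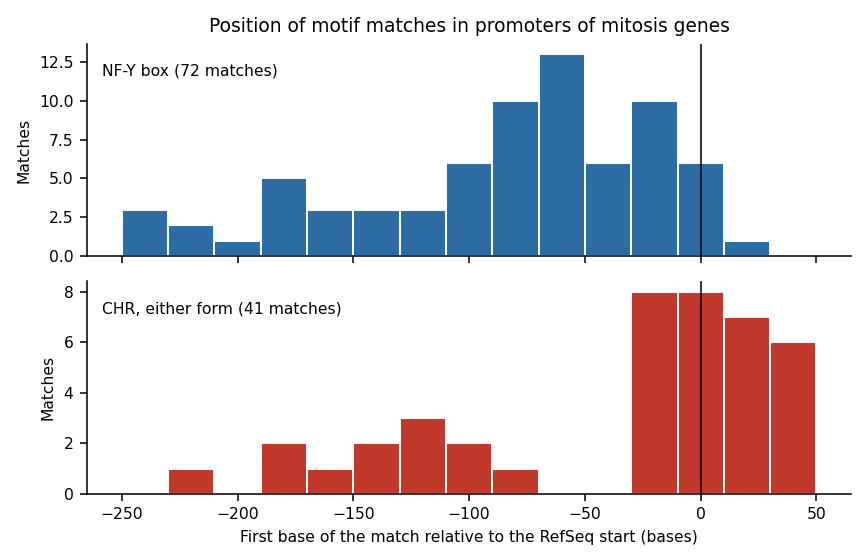
Number of matches by the position of their first base relative to the RefSeq start, in bases, for CCAAT boxes (NF-Y boxes, top) and CHR elements (bottom) in the promoter windows of the mitosis and cytokinesis genes. CCAAT boxes spread over the upstream bases with a median of -69.5, and CHR matches gather around the start with a median of -5.

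The 9 libraries held 15962399 to 19441239 counts, so that 3 counts, taken as the floor of detection, stood for 0.154 to 0.188 CPM. Of the 54532 genes, 15348 passed the filter on low counts and were tested. Between day 7 and control, 4692 genes passed at an adjusted p under 0.05, 51.6% of them higher, and longer genes tended to be higher (Spearman rho 0.423 across genes, which are not independent replicates). With gene length and GC content corrected in each library, 3321 genes passed and 35.1% of them were higher. For day 14 against control the corresponding shares were 64.1% of 270 genes and 41.9% of 148. The third control library stood apart from the first and the second, with a chi-square per degree of freedom of 137.6 and 96.17 against them, beside 15.86 between the first and the second. Results on the mitosis genes are therefore also given without it.

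All 40 mitosis genes passed the filter, but 9 of them (Ccnb1, Cdc25c, Kif4, Kif2c, Ndc80, Nuf2, Cenpe, Bub1 and Ttk) reached its level, 0.568 CPM in 3 libraries, only through the day 7 group, so that a difference at day 7 was built into their selection. The other 31 reached it in the control and day 14 libraries alone. Values below are TMM-scaled CPM, listed for libraries 1, 2 and 3 of each group. Differences are log2 fold changes with their standard error (SE) from edgeR's quasi-likelihood test over all 9 libraries, and p-values are adjusted over all 15348 genes.

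At day 7 after irradiation, transcripts of nearly all of the 40 mitosis genes stood higher than in unirradiated glands, and at day 14 they were mostly between the levels of control and day 7. Of the 40 genes, 38 rose at day 7, none fell, and Aurka and Spc25 did not pass. Among all genes tested, 15.8% were higher and 14.8% lower. The 40 genes were chosen with earlier results of these data known, so this contrast is descriptive. Of the 31 genes that did not depend on day 7 for the filter, 29 rose. The log2 changes of the 40 genes ran from 0.46 to 5.49 with a median of 2.69, beside a median of 0.02 over all genes. In 39 of the 40 genes, every day 7 library lay above every control library, which held for 22.2% of all genes; Spc25 was the exception.

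At day 14 the 40 genes had a median log2 change of 0.55 against control, with 36 values above 0 and 4 below. None passed in edgeR, in which 1.76% of all genes did, 1.13% higher and 0.632% lower; 9 of the 40 had an unadjusted p under 0.05. DESeq2 called 4 (Ccnb1, Mki67, Cenpf and Racgap1), edgeR without the filter on low counts called 4, and limma-voom called 0. In edgeR, Ccnb1 passed without the second control library, Mki67 without the second day 14 library, and Psrc1 and Racgap1 without the third control library. Day 14 libraries all lay above the control libraries in Ccnb1, Mki67, Cdc20, Kif23 and Racgap1, 5 of the 40, where 12.4% of all genes did so. Compared directly with day 7, 32 of the 40 genes were lower at day 14 and 0 higher, beside 2.87% and 3.72% of all genes, with a median log2 change of -1.98. Of the 31 genes that did not depend on day 7 for the filter, 24 were lower. All 32 had also risen at day 7, a pattern shared by 2.53% of all genes. The 8 that did not pass were Cdk1, Cdc25c, Gtse1, Top2a, Aurka, Spc25, Aurkb and Incenp. In 38 of the 40 genes every day 14 library lay below every day 7 library, as in 13.5% of all genes. The mean at day 14 lay between those of control and day 7 for 36 genes and under the control mean for Spc25, Bub1, Bub1b and Ttk. Both comparisons with control share the same 3 control libraries, and both comparisons with day 7 share the same 3 day 7 libraries.

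**Figure D3:**
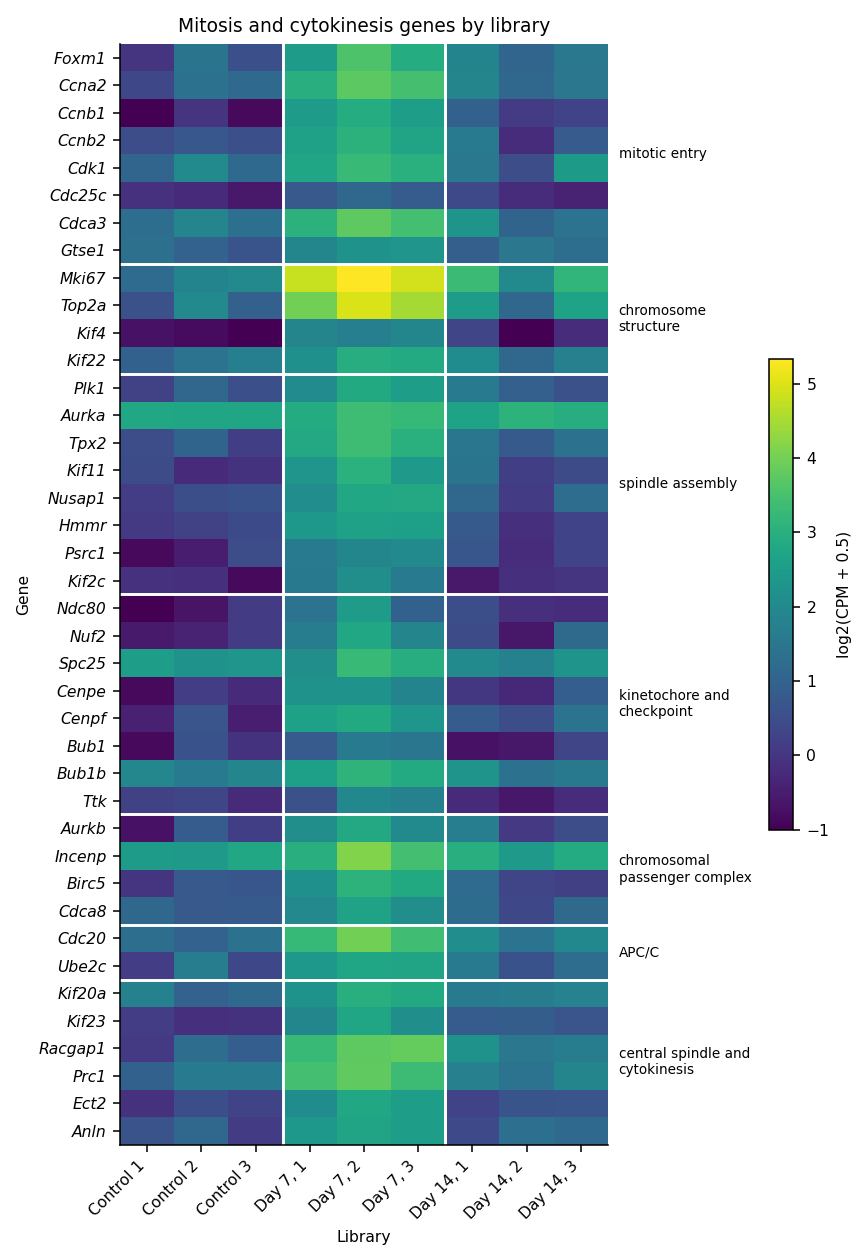
Level of each of the 40 genes in each of the 9 libraries, as log2(CPM + 0.5), with genes grouped by role and white lines between groups of libraries. The 3 day 7 columns are brightest for nearly every gene, Aurka, Spc25 and Incenp are bright in every column, and Mki67 and Top2a are the brightest at day 7.

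Summed over the 40 genes, the level was 49.8, 67.5 and 57.2 CPM in the control libraries, 221, 359 and 275 at day 7 and 100, 58.3 and 90.6 at day 14. The day 7 libraries were all above the rest, while the second day 14 library fell within the control range. The mean was 58.2 ± 8.92 CPM (SD, n = 3) in control, 285 ± 69.3 at day 7 and 83 ± 22 at day 14, which is 4.9 times the control mean at day 7 and 1.43 times at day 14. The libraries of a group differed from one another in the same way across genes. The second day 7 library had the highest value of all 9 libraries in 34 of the 40 genes, and the first day 7 library was the lowest of its group in 34. The second day 14 library was the lowest of its group in 28.

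Genes of mitotic entry all rose at day 7. This group of 8 holds Cdk1, the kinase that starts mitosis, its cyclins, its activating phosphatase and the transcription factor Foxm1, and 5 of the 8 fell again between day 7 and day 14. Among all genes tested, 15.8% rose at day 7 and 2.87% were lower at day 14 than at day 7. Ccnb1 (ENSMUSG00000041431, chr13:100778650-100786570), the B-type cyclin that brings Cdk1 to full activity, measured 0, 0.472 and 0.0566 CPM in control, 5.1, 7.09 and 5.37 at day 7 and 1.46, 0.584 and 0.704 at day 14. Its transcripts were at or near 0 in 2 of the 3 control libraries and present in every irradiated library. It rose by 5.08 (SE 0.629, adjusted p = 3.88e-05) at day 7, or 7.33 without the second control library. It fell by 2.68 (SE 0.497, adjusted p = 0.00477) from day 7 to day 14. Ccnb1 reached the filter on low counts only through the day 7 group, so both differences from day 7 were built into its selection. At day 14 its 3 libraries were above all controls, but the difference did not pass (2.40, SE 0.693, adjusted p = 0.0718).

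Ccnb2, the second B-type cyclin, was at 0.915, 1.15 and 0.962 CPM in control, 5.7, 7.86 and 5.96 at day 7 and 2.57, 0.372 and 1.25 at day 14. The controls were tightly grouped, and the second day 14 library was below them. Ccna2, cyclin A2, which partners Cdk2 in S phase and Cdk1 in G2, stood at 0.793, 2.09 and 1.75 CPM in control, 7.44, 12.8 and 10.6 at day 7 and 3.16, 1.7 and 2.33 at day 14. Foxm1 itself was at 0.488, 2.23 and 0.962 CPM in control, 5.05, 11.4 and 7.04 at day 7 and 3.1, 1.59 and 2.38 at day 14. For Ccnb2, Ccna2 and Foxm1 the day 7 libraries overlapped neither other group, and the log2 rise was similar, 2.69 (SE 0.452, adjusted p = 0.000359), 2.73 (SE 0.334, adjusted p = 2.89e-05) and 2.69 (SE 0.451, adjusted p = 0.000493). Without the second control library the Foxm1 value was 3.40. Cdk1 was at 1.59, 3.51 and 1.75 CPM in control, 6.25, 9.34 and 7.58 at day 7 and 2.4, 0.903 and 4.98 at day 14. Its day 14 libraries covered the whole span from below the controls to close to day 7, and its day 7 change was 1.77 (SE 0.482, adjusted p = 0.0153). The call on Cdk1 was lost without the first control library (adjusted p = 0.0993), the third control library (0.0705) or the second day 7 library (0.0513).

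Cdca3, an adaptor for the degradation of the Cdk1 inhibitor Wee1, was at 1.95, 3.17 and 1.98 CPM in control, 7.93, 13 and 10.3 at day 7 and 4.38, 1.54 and 2.17 at day 14. Gtse1, a microtubule-binding protein of G2 and M phase, was at 2.01, 1.48 and 1.07 CPM in control, 3.26, 4.29 and 4.46 at day 7 and 1.4, 2.34 and 1.95 at day 14. Day 7 stood above all controls in both, and day 14 overlapped control. Their day 7 changes were 2.14 (SE 0.337, adjusted p = 0.000197) and 1.39 (SE 0.341, adjusted p = 0.00471). Cdc25c, the phosphatase that removes the inhibitory phosphates of Cdk1, had no library above 1.65 CPM, and its day 7 rise was 2.13 (SE 0.616, adjusted p = 0.0133). It did not pass without the second day 7 library (adjusted p = 0.0632). Cdc25c also reached the filter only through the day 7 group, so this rise was built into its selection.

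The chromosome structure group had the largest summed rise. Its 4 genes summed to 4.39, 8.84 and 7.69 CPM in control, 49.9, 80.9 and 61.2 at day 7 and 19, 6.96 and 17.6 at day 14. All 4 passed as higher at day 7, beside 15.8% of all genes. Mki67 (ENSMUSG00000031004, chr7:135689784-135716361), which encodes the Ki-67 protein that coats mitotic chromosomes and marks proliferating cells, was at 1.83, 3.1 and 3.45 CPM in control, 27.2, 39.8 and 29.2 at day 7 and 9.41, 3.61 and 8.45 at day 14. The day 7 libraries were far above the rest, and the 3 day 14 libraries were also above the 3 controls. It rose by 3.51 (SE 0.353, adjusted p = 7.31e-05) at day 7 and fell by 2.17 (SE 0.318, adjusted p = 0.00388) from day 7 to day 14, and its day 14 value against control was 1.35 (SE 0.361, adjusted p = 0.0762).

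Top2a (ENSMUSG00000020914, chr11:98992943-99024189), the topoisomerase that untangles sister chromatids, was at 0.976, 3.51 and 1.41 CPM in control, 15.4, 31.1 and 21.9 at day 7 and 5.14, 1.65 and 5.91 at day 14. Its controls spread widely, and day 14 overlapped them. The day 7 rise was 3.56 (SE 0.620, adjusted p = 0.00528), or 4.23 without the second control library, and the decrease to day 14 did not pass (-2.43, SE 0.564, adjusted p = 0.0524). Kif22, a kinesin that pushes chromosome arms towards the spindle equator, was at 1.46, 2.16 and 2.83 CPM in control, 4.02, 7.25 and 6.88 at day 7 and 3.74, 1.7 and 2.87 at day 14, with no overlap of day 7 and control and a rise of 1.49 (SE 0.339, adjusted p = 0.00287). Kif4, a kinesin that compacts chromosome arms and acts at the central spindle, had 3 counts in all over the 3 controls and 170 over day 7. The ratio was 50.2 after scaling, with a 95% counting interval of 16.9 to 246, and at day 14 it was 5.99 (1.78 to 31.5). These intervals cover counting error only. Day 14 counts of Kif4 were 13, 0 and 7 in libraries 1, 2 and 3, against 2, 1 and 0 in control. In edgeR its day 14 change against control was 2.47 and did not pass (SE 1.024, adjusted p = 0.174). Kif4 reached the filter only through the day 7 group, so a difference at day 7 was built into its selection.

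Spindle assembly genes rose at day 7 with the exception of Aurka, 7 of 8, and the same number fell from day 7 to day 14. The shares over all genes were 15.8% higher at day 7 and 2.87% lower at day 14 than at day 7. Tpx2, which activates Aurora A and seeds microtubules around chromosomes, was at 0.915, 1.55 and 0.622 CPM in control, 6.52, 9.78 and 7.58 at day 7 and 2.28, 1.22 and 2.06 at day 14. Plk1, the Polo kinase of centrosome maturation and many later steps, was at 0.671, 1.62 and 0.962 CPM in control, 3.69, 6.65 and 5.32 at day 7 and 2.57, 1.43 and 0.975 at day 14. Kif11, the kinesin that pushes the spindle poles apart, was at 0.854, 0.337 and 0.453 CPM in control, 4.45, 7.75 and 4.84 at day 7 and 2.22, 0.637 and 0.867 at day 14. In these genes the day 7 libraries lay above all others, and day 14 overlapped control. Their day 7 changes were 2.96 (SE 0.351, adjusted p = 2.2e-05), 2.27 (SE 0.406, adjusted p = 0.000447) and 3.35 (SE 0.474, adjusted p = 7.4e-05).

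Nusap1, which bundles spindle microtubules near chromosomes, was at 0.61, 0.944 and 1.02 CPM in control, 3.8, 6.43 and 6.56 at day 7 and 1.69, 0.584 and 1.9 at day 14. Hmmr, a microtubule-binding protein that holds Tpx2 at spindle poles, was at 0.549, 0.675 and 0.848 CPM in control, 4.72, 5.66 and 5.43 at day 7 and 1.23, 0.425 and 0.704 at day 14. In both genes day 14 overlapped control and lay below day 7, from which Hmmr fell by 2.75 (SE 0.384, adjusted p = 0.0003). Against control they rose by 2.70 (SE 0.413, adjusted p = 0.000125) and 2.91 (SE 0.393, adjusted p = 4.82e-05). Psrc1 and Kif2c, which act on microtubule ends at the spindle and the centromere, did not exceed 3.9 CPM in any library and rose by 2.95 (SE 0.613, adjusted p = 0.00153) and 3.32 (SE 0.583, adjusted p = 0.000393). Kif2c reached the filter only through the day 7 group, so a difference at day 7 was built into its selection. Without the third control library the value for Psrc1 was 4.51.

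Aurka (ENSMUSG00000027496, chr2:172356190-172370535), the Aurora A kinase of centrosomes and spindle poles, differed from the rest of the group. It was at 6.34, 6.14 and 6.22 CPM in control, 6.95, 9.83 and 8.92 at day 7 and 5.84, 7.97 and 7.26 at day 14. Its control level per length was the highest of the 40 genes, and the groups differed little, although the lowest day 7 library was still above the highest control. The change was 0.46 (SE 0.201, adjusted p = 0.0914) at day 7 and 0.17 (SE 0.202, adjusted p = 0.664) at day 14. With length and GC content corrected, the day 7 value was 0.60 and passed (adjusted p = 0.0331). Its promoter window holds a CHR and 2 CCAAT boxes.

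Kinetochore and checkpoint genes rose at day 7 in 7 of 8 cases and fell from day 7 to day 14 in 7 of 8. Among all genes tested, 15.8% were higher at day 7, and 2.87% were lower at day 14 than at day 7. Most of these calls carry little weight, since Ndc80, Nuf2, Cenpe, Bub1 and Ttk reached the filter only through the day 7 group. Of the genes that did not, Cenpf and Bub1b passed in both comparisons and Spc25 in neither. Cenpf, a large protein of the outer kinetochore, was at 0.244, 1.08 and 0.226 CPM in control, 5.7, 6.65 and 4.51 at day 7 and 1.29, 0.903 and 2.17 at day 14. Bub1b, the BubR1 checkpoint kinase, was at 3.29, 2.5 and 3.17 CPM in control, 5.43, 8.24 and 6.77 at day 7 and 4.38, 2.12 and 2.44 at day 14. For both, day 7 lay above all other libraries; in Bub1b the day 14 range covered that of control. Cenpf rose by 3.47 (SE 0.490, adjusted p = 7.69e-05), or 4.53 without the second control library, and Bub1b by 1.19 (SE 0.291, adjusted p = 0.00477).

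Spc25 (ENSMUSG00000005233, chr2:69193895-69206194), a subunit of the Ndc80 complex that grips spindle microtubules, was at 5.24, 4.25 and 4.47 CPM in control, 3.91, 9.28 and 7.15 at day 7 and 3.56, 2.97 and 4.33 at day 14. It is the only member of the 40 whose day 7 and control libraries overlapped: the first day 7 library was below all 3 controls, and the other two were above. Its change was 0.54 (SE 0.281, adjusted p = 0.154), and without the first day 7 library it passed (adjusted p = 0.034). The other subunits listed, Ndc80 and Nuf2, belong to the same complex and had control libraries at 0 to 0.566 CPM and day 7 libraries at 1.45 to 6.37. They rose by 3.55 (SE 0.755, adjusted p = 0.00218) and 3.53 (SE 0.669, adjusted p = 0.0011). Without the third control library the Ndc80 value was 5.33, and without the second day 7 library it was 2.88. Whether the change differs between subunits was not tested.

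The rest of this group did not exceed 4.24 CPM in any library. Cenpe, the kinetochore kinesin, rose by 3.52 (SE 0.589, adjusted p = 0.000262), or 4.19 without the second control library. Ttk, the Mps1 kinase that starts checkpoint signalling, rose by 2.05 (SE 0.551, adjusted p = 0.00855), and Bub1, the kinase that recruits the other checkpoint proteins, by 2.00 (SE 0.706, adjusted p = 0.0387). Ttk did not pass without the second day 7 library (adjusted p = 0.0643). Bub1 was the least secure call of the 38. It did not pass without the first or the third control library (adjusted p = 0.133 and 0.0855), without the second or the third day 7 library (0.128 and 0.102), or with length and GC content corrected (0.066), and its value was 2.92 without the second control library.

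All 4 genes of the chromosomal passenger complex, which corrects wrong attachments at centromeres and then moves to the central spindle, rose at day 7. The share of all genes higher at day 7 was 15.8%. Aurkb, its Aurora B kinase, was at 0.122, 1.28 and 0.622 CPM in control, 3.86, 6.59 and 3.55 at day 7 and 2.75, 0.531 and 0.921 at day 14. Birc5, the survivin subunit, was at 0.488, 1.21 and 1.13 CPM in control, 4.02, 8.08 and 6.72 at day 7 and 1.81, 0.744 and 0.65 at day 14. Cdca8, the borealin subunit, was at 1.71, 1.21 and 1.24 CPM in control, 3.42, 5.82 and 3.87 at day 7 and 1.87, 0.797 and 1.79 at day 14. Day 7 lay above control in each, and the second and the third day 14 libraries were inside the control range for Aurkb and Birc5. Their day 7 changes were 2.80 (SE 0.663, adjusted p = 0.00672), 2.72 (SE 0.427, adjusted p = 0.000161) and 1.65 (SE 0.371, adjusted p = 0.00263), and that of Aurkb was 3.59 without the second control library. From day 7 to day 14 Birc5 and Cdca8 fell, and Aurkb did not pass (-1.74, SE 0.607, adjusted p = 0.105).

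Incenp, the scaffold that binds the other subunits, was at 5.12, 4.86 and 6.39 CPM in control, 7.39, 17.1 and 10.3 at day 7 and 7.36, 4.78 and 6.99 at day 14. It had a high control level for this set, and 1 day 7 library, the second, was well above the other two. The rise was 1.08 (SE 0.267, adjusted p = 0.00542), and without that library it was 0.70 and did not pass (adjusted p = 0.06).

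The anaphase-promoting complex (APC/C) is the ubiquitin ligase that ends mitosis by marking cyclin B and securin for destruction. Cdc20, its mitotic activator, was at 1.95, 1.48 and 2.09 CPM in control, 8.96, 15.4 and 10 at day 7 and 3.8, 2.18 and 3.36 at day 14. Day 7 was above all other libraries, and day 14 was above control in all 3. It had the smallest adjusted p of the 40 genes at day 7, 2.63 (SE 0.284, adjusted p = 1.02e-05), and fell by 1.88 (SE 0.268, adjusted p = 0.000365) from day 7 to day 14. Ube2c, the conjugating enzyme that feeds ubiquitin to the complex, was at 0.61, 2.7 and 0.792 CPM in control, 4.72, 6.1 and 6.02 at day 7 and 2.63, 1.01 and 1.9 at day 14. Its second control library was above all 3 day 14 libraries, and the rise of 2.06 (SE 0.460, adjusted p = 0.00327) was 2.97 without it.

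Genes of the central spindle and cytokinesis, which build the midzone between the separating chromosomes and the contractile ring, all rose at day 7 and all fell from day 7 to day 14, 6 of 6. Over all genes, 15.8% were higher at day 7 and 2.87% lower at day 14 than at day 7. Prc1, which cross-links the midzone microtubules, was at 1.46, 2.63 and 2.49 CPM in control, 10.3, 13.2 and 9.67 at day 7 and 2.86, 2.18 and 3.2 at day 14. Racgap1, the GTPase-activating subunit of centralspindlin, was at 0.549, 1.89 and 1.36 CPM in control, 9.18, 13 and 13.8 at day 7 and 4.27, 2.34 and 2.71 at day 14. Kif23, the kinesin subunit of centralspindlin, was at 0.61, 0.405 and 0.453 CPM in control, 3.26, 6.1 and 3.92 at day 7 and 1.29, 1.33 and 1.08 at day 14. Racgap1 and Kif23 kept all 3 day 14 libraries above the controls, while Prc1 overlapped them. Their day 7 changes were 2.33 (SE 0.266, adjusted p = 1.62e-05), 3.25 (SE 0.346, adjusted p = 1.17e-05) and 3.16 (SE 0.402, adjusted p = 3.49e-05). At day 14 the 2 centralspindlin subunits were at 1.30 (SE 0.356, adjusted p = 0.0631) and 1.32 (SE 0.419, adjusted p = 0.0877) against control.

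Ect2, the exchange factor that switches on RhoA at the equator, was at 0.427, 0.944 and 0.735 CPM in control, 3.75, 6.32 and 5.32 at day 7 and 0.701, 1.06 and 1.08 at day 14. Anln, anillin, the scaffold of the contractile ring, was at 1.04, 1.69 and 0.566 CPM in control, 4.72, 6.04 and 5.27 at day 7 and 0.818, 1.97 and 1.73 at day 14. Kif20a, the kinesin that carries the passenger complex to the midzone, was at 2.93, 1.48 and 1.75 CPM in control, 4.18, 7.36 and 6.66 at day 7 and 2.51, 2.71 and 3.03 at day 14. In Ect2, Anln and Kif20a day 7 was above every other library, and day 14 overlapped control. The changes at day 7 were 2.86 (SE 0.388, adjusted p = 4.88e-05), 2.30 (SE 0.394, adjusted p = 0.000319) and 1.56 (SE 0.311, adjusted p = 0.00109).

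**Figure D4:**
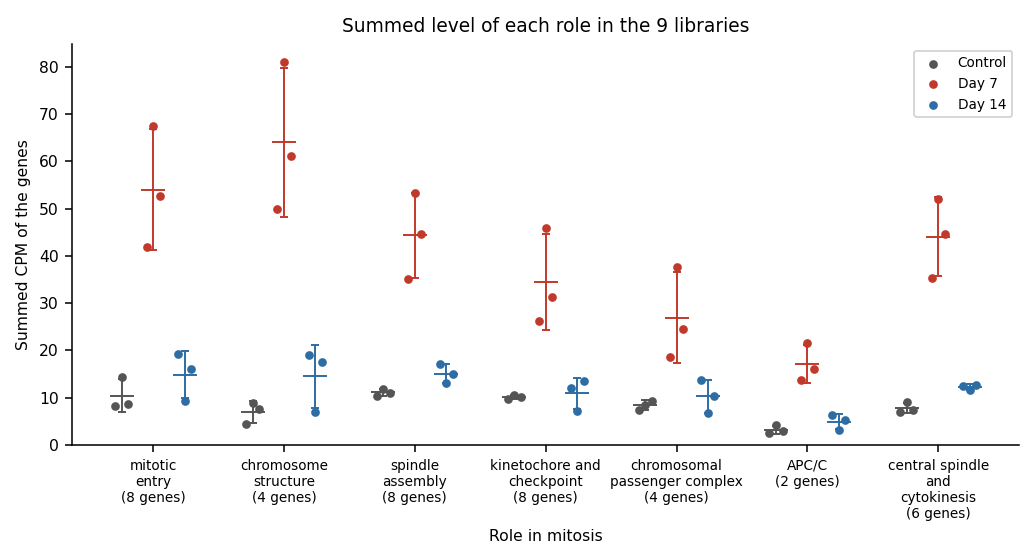
Summed CPM of the genes of each role in each library, with control, day 7 and day 14 libraries as points, the mean as a horizontal line and the SD (n = 3) as a bar. Day 7 libraries lie above the other 6 in all 7 roles, and the chromosome structure genes reach the highest sum, 80.9 CPM.

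By role, the ratio of the day 7 mean to the control mean of the summed level was 9.18 for chromosome structure, 5.64 for the central spindle and cytokinesis, 5.32 for APC/C activity, 5.17 for mitotic entry, 3.99 for spindle assembly, 3.4 for kinetochore and checkpoint and 3.18 for the passenger complex. At day 14 the same ratio was 2.08 for chromosome structure and 1.08 to 1.58 for the other 6 roles. The roles with lower ratios are those that hold Aurka, Spc25, Bub1b or Incenp, each at 2.5 CPM or more in every control library. Across the 40 genes, the log2 change at day 7 had a Spearman rho of -0.656 with the control level, with which it shares the control libraries, and of 0.513 with exonic length.

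**Figure D5:**
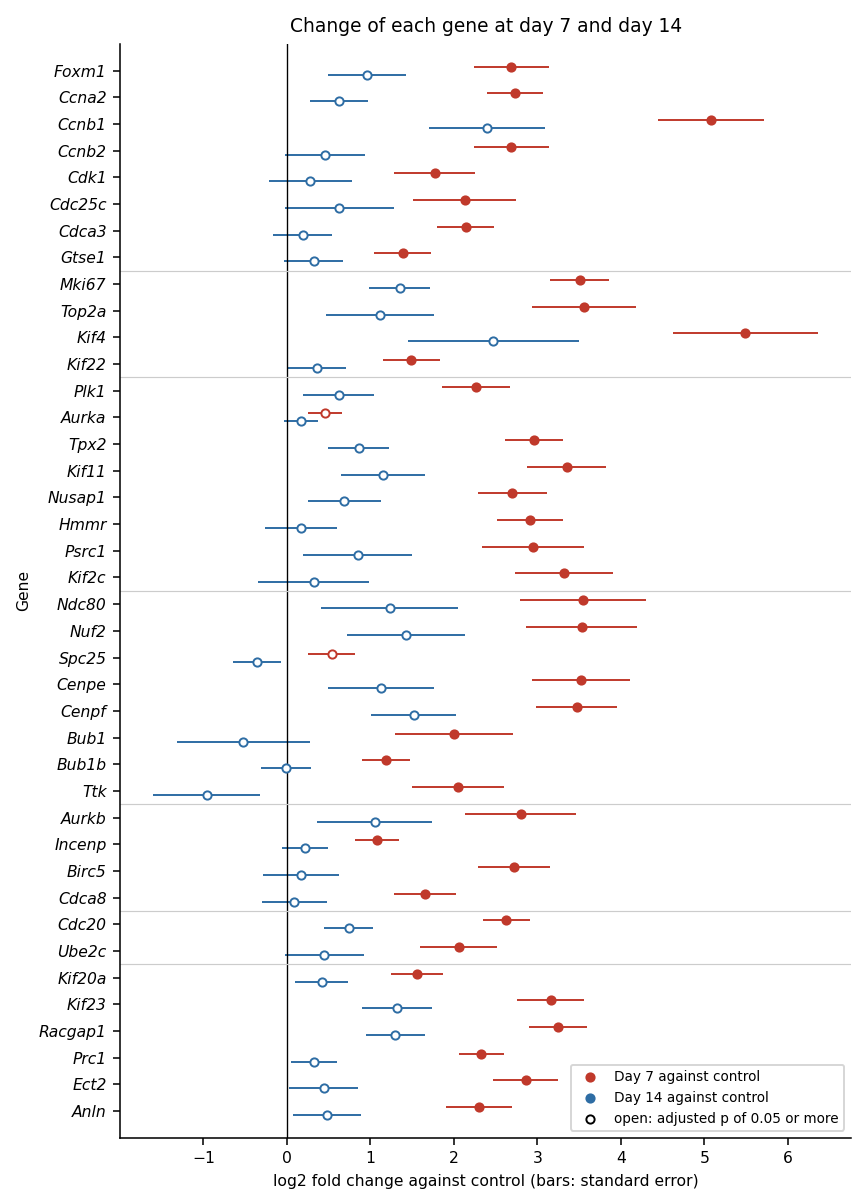
Log2 fold change of each of the 40 genes against control at day 7 (red) and day 14 (blue), with SE as bars, filled where the adjusted p is under 0.05 and open otherwise. Every day 7 point but Aurka and Spc25 is filled, every day 14 point is open, and day 14 lies nearer to 0 than day 7 for each gene.

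Levels per length, as TPM (library-scaled transcripts corrected for exonic length), allow the genes to be ordered within a group. In control, Aurka was highest at 3.96 ± 0.117 TPM (SD, n = 3), followed by Spc25 at 2.34 ± 0.218, Incenp at 2.03 ± 0.37 and Cdc20 at 1.59 ± 0.3. The ranges of mean ± SD overlapped between Spc25 and Incenp and between Incenp and Cdc20, while that of Aurka stood clear. At day 7, Cdc20 was first at 14.6 ± 4.46, Ccnb2 was at 10.1 ± 1.9, Cdca3 at 8.62 ± 2.07, Aurka at 8.03 ± 1.26 and Mki67 at 7.58 ± 1.65. The range of mean ± SD of each overlapped that of the next. Spc25 was 11th at day 7. Ccnb1 moved from 36th in control to 20th at day 7, and Top2a from 21st to 7th. At day 14, Aurka was again first at 5.36 ± 0.676, before Cdc20 at 3.25 ± 0.991. Orders are compared here and not TPM values between groups, because the sum behind TPM differs between groups.

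Single libraries moved these counts to different degrees. The number of genes that rose at day 7 was 33 without the second day 7 library, 36 without the first or the third control library and 37 to 39 over all other omissions. Of the 38 genes, 33 passed in all 9 omissions. Ccnb1, Kif4, Kif2c, Ndc80, Nuf2 and Cenpe are among these 33 but reached the filter only through the day 7 group. Without the second day 7 library Cdk1, Cdc25c, Bub1, Ttk and Incenp did not pass. The decrease from day 7 to day 14 rested more on single libraries, with 16 of the 32 genes passing in all 9 omissions: Ccna2, Ccnb1, Ccnb2, Cdca3, Mki67, Tpx2, Nusap1, Hmmr, Kif2c, Ttk, Birc5, Cdc20, Racgap1, Prc1, Ect2 and Anln. Of these, Ccnb1, Kif2c and Ttk reached the filter only through the day 7 group, so a difference from day 7 was built into their selection. Without the second day 7 library 16 genes were lower, and without the second day 14 library 19, with medians of -1.78 and -1.79.

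The genes that dropped out differed by library. Without the second day 7 library these were Foxm1, Kif4, Kif22, Plk1, Kif11, Psrc1, Ndc80, Nuf2, Cenpe, Cenpf, Bub1, Bub1b, Cdca8, Ube2c, Kif20a and Kif23. Without the second day 14 library the same list dropped out apart from Kif4, Kif11 and Kif23. The first day 14 library decided Kif22, Psrc1, Ndc80, Nuf2, Cenpe, Cenpf, Bub1, Ube2c and Kif20a, and the third decided Foxm1, Kif4, Kif22, Plk1, Psrc1, Ndc80, Bub1b, Ube2c and Kif20a. The first day 7 library decided Kif4, Psrc1, Ndc80, Nuf2, Cenpe, Bub1 and Ube2c, the third Kif22, Psrc1, Nuf2, Bub1, Ube2c and Kif20a, and the second control library Kif22, Ndc80 and Nuf2. Some decreases were larger without a day 14 library. Without the first, Ccnb2 was at -3.0, Kif4 at -3.98, Kif11 at -2.90 and Birc5 at -3.16, and without the third, Nuf2 was at -2.98, Cenpe at -3.18 and Bub1 at -3.80. Ndc80 was at -1.64 without the second day 7 library.

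For 11 of the 40 genes an exon overlaps an exon of a gene on the other strand. These are Ccna2 (Exosc9), Cdc25c (Gm3550), Kif4 (Pdzd11), Kif22 (Gm31749), Plk1 (Gm44985), Nusap1 (Oip5), Cdca8 (9930104L06Rik), Cdc20 (Elovl1), Ube2c (Tnnc2), Kif20a (Cdc23) and Prc1 (Rccd1). Whether reads were counted by strand is not given in the sources used here, so reads in the shared bases cannot be told apart. Ccnb2 has a transcribed pseudogene copy, Ccnb2-ps, with 217 counts over the 9 libraries, and its value is uncertain to that extent.

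Other genes of the mitotic apparatus moved with these. Of 46 further genes of kinetochore, spindle and cytokinesis, 45 were tested, 31 rose at day 7 and 0 fell, with a median log2 change of 1.92, and 14 fell from day 7 to day 14. Among all genes, 15.8% were higher and 14.8% lower at day 7, and 2.87% were lower at day 14 than at day 7. How many of the 45 reached the filter only through the day 7 group was not counted. This list, too, was chosen with earlier results of these data known. None passed at day 14 against control, where 9 had an unadjusted p under 0.05. Cenpa, the histone that marks centromeres, rose by 2.89 (SE 0.293, adjusted p = 5.61e-06). Ckap2, a spindle microtubule protein, rose by 3.55 (SE 0.370, adjusted p = 7.14e-06), or 4.20 without the first control library. Kif20b and Arhgap11a, which act in cytokinesis, rose by 2.37 and 2.31. From day 7 to day 14 Cenpa fell by 2.04, Ckap2 by 2.51, Kif20b by 2.06 and Arhgap11a by 1.55, the last not passing without the second day 7 library. The count of 14 dropped to 4 without the second day 7 library and to 7 or 8 without any other day 7 or day 14 library.

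Condensin and cohesin subunits, the ring complexes that compact chromosomes and hold sister chromatids, rose in 15 of 17 cases at day 7 and Ncaph2, a condensin II subunit, fell, but the sizes were small, with a median of 0.70. The condensin genes Ncapg (4.00, SE 0.576), Smc2 (1.52, SE 0.220) and Smc4 (1.25, SE 0.152) and the cohesin gene Rad21 (0.70, SE 0.114) had the smallest p-values. Ncapg was at 4.63 without the second control library. With length and GC content corrected, 8 of the 17 passed as higher and 0 as lower, and without the first day 7 library 9 did. None passed at day 14 against control with all libraries, and without the third control library 11 were higher and 1 lower. Of 16 core APC/C subunits, 2 rose and 5 fell at day 7, with a median of -0.15, beside 15.8% higher and 14.8% lower among all genes. The difference from Cdc20 and Ube2c was not tested. Anapc13 fell by 0.90, Anapc11 by 0.65 and Anapc16 by 0.56, while Cdc27 rose by 0.63 and did not pass with length and GC content corrected (adjusted p = 0.221). Without the first day 7 library 3 of the subunits were lower.

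Regulators of the E2F, DREAM and MuvB families were more mixed. Of 20, 9 rose and 1 (Lin37) fell at day 7, with a median of 0.35, beside 15.8% higher and 14.8% lower among all genes. Without the first control library or any 1 day 7 library 5 to 7 rose, and 5 rose with length and GC content corrected. The pocket protein genes all rose: Rb1 by 1.44 (SE 0.173, adjusted p = 2.52e-05), Rbl1 by 1.25 (SE 0.238, adjusted p = 0.000768) and Rbl2 by 0.59 (SE 0.107, adjusted p = 0.000495). The repressor E2f8 rose by 2.52 (SE 0.598, adjusted p = 0.00391). Lin9, a MuvB core subunit, was at 0.75 (adjusted p = 0.0452), a call lost with length and GC content corrected and in every omission except those of the third control and the second day 14 library. Mybl2, the MuvB partner in dividing cells, was at -0.42 (SE 0.385, adjusted p = 0.438), and E2f1, an activator of S phase genes, at 0.28 (SE 0.380, adjusted p = 0.617). At day 14, Rb1 at 0.83 (adjusted p = 0.0303) and Rbl1 at 0.94 (adjusted p = 0.0493) passed against control; Rb1 lost this call without the first or the second control library or any day 14 library, and Rbl1 in every omission except that of the third control. Neither passed with length and GC content corrected (0.57, adjusted p = 0.0682, and 0.70, adjusted p = 0.132).

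In the earlier phases of the cycle the changes were smaller. Of 31 tested genes of DNA replication, 12 rose and 1 (Gins4) fell at day 7, beside 15.8% higher and 14.8% lower among all genes. Their median was 0.50. With length and GC content corrected 9 rose, and without the first control library 8 rose. Pole, a replicative polymerase, rose by 1.62, Rrm2, the ribonucleotide reductase subunit that limits nucleotide supply, by 1.31, Pola1, the priming polymerase, by 1.26 and Mcm6, a subunit of the replicative helicase, by 0.83. Mcm2, another helicase subunit, was at 0.50 (adjusted p = 0.0266), a call lost with length and GC content corrected and without the first or the second control library or the third day 7 library. Pcna, the sliding clamp, was at 0.15 (SE 0.119, adjusted p = 0.351). Rrm2 fell by 1.18 from day 7 to day 14 (adjusted p = 0.0266), a call lost without the second or the third library of either group. Of 12 tested G1 cyclins and kinases, 3 passed as higher, near the 15.8% of all genes. These were Ccnd1, cyclin D1, at 0.56 (adjusted p = 0.00364), Cdk2 at 0.41 (adjusted p = 0.0124) and Cdk6 at 0.39 (adjusted p = 0.0468). Cdk2 lost its call without the third day 7 library, Cdk6 in every omission except those of the third control and the second day 14 library, and neither passed with length and GC content corrected. Ccne2, cyclin E2, was at 0.77 and did not pass (adjusted p = 0.076).

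Of 21 tested brakes on the cycle, 5 rose and 3 (Pkmyt1, Gadd45g and Sfn) fell at day 7, with a median of 0.07. These counts are near the shares of all genes, 15.8% higher and 14.8% lower. Cdkn1a, the p53 target that inhibits cyclin-dependent kinases, rose by 1.30 at day 7 (SE 0.176, adjusted p = 4.88e-05) and by 1.49 at day 14 against control (adjusted p = 0.000905). Ccng1, another p53 target, rose by 1.02 (adjusted p = 1.93e-05) and by 0.80 (adjusted p = 0.0048). Neither differed between day 7 and day 14 at the threshold, with differences of 0.20 and -0.22 (adjusted p = 0.534 and 0.268), and their time course was not tested against that of the mitosis genes. Wee1, the kinase that inhibits Cdk1, rose by 1.67 (SE 0.311, adjusted p = 0.003) and fell by 1.26 from day 7 to day 14 (adjusted p = 0.0378), the latter lost with length and GC content corrected (adjusted p = 0.065) and in every omission except those of the first and the third control library. Cdkn2c, an inhibitor of Cdk4 and Cdk6, rose by 0.89. Chek1, the checkpoint kinase, was at 1.05 (adjusted p = 0.0918) and passed without the third control library, and Cdkn1b was at 0.24 (adjusted p = 0.0736). Sesn2, a stress-response gene, was lower at day 14 against control by a log2 change of -1.55 (adjusted p = 0.0335).

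Some markers of the cell types that the sections could hold also differed between groups. Their counts stand beside 15.8% of all genes higher and 14.8% lower at day 7. The defining markers of acinar cells were abundant in every library, with sums of 196732 to 281735 CPM in control, 152267 to 160542 at day 7 and 193855 to 200873 at day 14. Of 12 acinar markers 7 fell at day 7, among them Dcpp2 and Dcpp1 by 0.78 and 0.76 and Spdef by 0.62, and 2 rose, with Ano1 at 0.78. Of 11 tested duct markers 3 rose and 4 fell. Krt8 fell by 0.42 and Ascl3 by 0.96, while Egf and Scnn1a rose by 0.39 and 0.40. Summed duct markers were 1722 to 1880 CPM in control, 1539 to 1734 at day 7 and 1588 to 1627 at day 14, and Slc26a4 was at 0 in every library. Basal and myoepithelial markers had 3 of 8 tested genes higher (Itgb4 by 0.73, Myh11 by 0.51 and Col17a1 by 0.43), with sums of 905 to 1028, 1032 to 1188 and 1013 to 1087 CPM. Fibroblast markers had 4 of 9 higher (Postn, Col1a1, Col1a2 and Col3a1 by 0.68, 0.62, 0.59 and 0.48), with sums of 417 to 455, 475 to 592 and 474 to 650 CPM. Endothelial markers had 2 of 8 higher, near the share of all genes (Tek by 0.74 and Vwf by 0.34), with sums of 358 to 396, 438 to 521 and 412 to 456 CPM. Single libraries decided some of these calls: Ascl3 (the third control, the first and the third day 7 library), Scnn1a (the first control, the second day 7 library), Col17a1 (the first and the second control, the first day 7 library), Col3a1 (the same and the third day 7 library), Vwf (the second control, the first day 7 library) and Tek (the second and the third control, the first and the second day 7 library). With length and GC content corrected, Krt8, Egf, Ascl3, Postn, Col3a1, Vwf and Tek did not pass. The part of these cell types in the rise of the mitosis genes was not tested.

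Immune and blood markers did not rise with the mitosis genes at day 7. Macrophage markers summed to 201 to 235 CPM in control, 112 to 173 at day 7 and 273 to 345 at day 14. At day 7, 3 of 9 fell (C1qc by 0.75, C1qb by 0.67 and C1qa by 0.57), beside 14.8% of all genes. At day 14, 6 of 9 were higher than at day 7, beside 3.72% of all genes. T and NK cell markers summed to 3.58 to 4.24, 2.03 to 2.79 and 2.82 to 6.23 CPM, and none of the 9 had a mean of 1 CPM or more. Of 9 markers of B and germinal centre cells, whose germinal centre form divides rapidly, 2 were tested and S1pr2 fell by 0.43; the sums were 39 to 51.1, 44.1 to 46.9 and 35.3 to 43.1 CPM. Plasma cell markers had 3 of 8 lower (Derl3 by 0.59, Ighm by 1.22 and Mzb1 by 1.21), with sums of 1759 to 2546, 1353 to 1464 and 1328 to 2357 CPM. Ighm was at -0.59 without the third control library and did not pass; it also did not pass without the first or the second day 7 library, nor Mzb1 without the third control, the second or the third day 7 library, nor S1pr2 without the third control or any day 7 library. Erythroid markers passed in 0 of 7, with sums of 127 to 478, 71.8 to 143 and 69.6 to 143 CPM. Markers of the neighbouring submandibular gland summed to 1044 to 1671, 1148 to 1373 and 1043 to 1500 CPM; Klk1b9, Klk1b8 and Klk1b24 fell by 1.08, 1.48 and 0.90 at day 7, and these near-identical kallikrein copies are uncertain. Klk1b8 was at -0.63 without the third control library and lost its call without that, any day 7 or the first day 14 library, and Klk1b24 without the first or the second control or any day 7 library. With length and GC content corrected, C1qb, C1qa, Derl3, Ighm, Mzb1 and the 3 kallikrein genes did not pass. Skeletal muscle markers stayed at sums of 2.68 to 6.05 CPM in all libraries. The part of these cells in the result was not tested either.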

How the data were processed

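Each of the 9 libraries was deposited by the authors as whole-number counts per Ensembl gene, not normalised. The submitters' processing notes name STAR, featureCounts, DESeq2 and the mm10 build. Their versions, the annotation and the strand setting are not stated in those notes or labels. Of 54532 identifiers, 54495 matched a symbol and exonic length in GENCODE M21 (GRCm38).

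The groups came from the labels. Counts were filtered with edgeR 4.0.16 (R 4.3.3), which kept 15348 genes, scaled by TMM and fitted with the quasi-likelihood model over all 9 libraries (6 residual degrees of freedom, common biological coefficient of variation 16.1%). The 3 pairwise comparisons were tested two-sided with Benjamini-Hochberg adjustment over all genes tested, and the SE is the log2 change divided by the square root of F. The procedure was tested on simulated data. Alternatives were DESeq2 1.42.0 size factors and Wald test, limma-voom (limma 3.58.1), other filters, TMM without the most abundant genes, thresholds, only the libraries compared, a length and GC correction, a replicate block and leaving out each library. CPM is TMM-scaled, and TPM used the union of exons. Replicate numbers did not pair the libraries. Replicates of a group differed by more than sampling noise, and each was treated as 1 sample. This difference does not show that they came from separate animals.

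The 40 genes and all gene lists were chosen with earlier results of these data known. Values in every library are given for genes with a mean of at least 2 CPM and for those not passing at day 7; of each other list, up to 4 genes with the smallest p at day 7 and a set of key regulators are named. Sesn2, Lin37, Gins4, Ncaph2, Pkmyt1 and Sfn were named after their values were seen. The 30-base CHR windows were likewise chosen after the motif search. Promoters are from RefSeq (GRCm38.p6).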

Additional observations from a re-analysis of the deposited data

Results flagged for a closer look

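Most of the mitosis genes were lower at day 14 after irradiation than at day 7. Neither irradiated group had unirradiated glands of its own day, and the day of collection of the controls is not stated. A change in the effect of irradiation therefore cannot be told apart from other differences between the collections. When the change at day 14 was compared with the change at day 7, which is the comparison of day 14 with day 7 since both use the same controls, 32 of the 40 genes were lower at day 14 at an adjusted p under 0.05 in edgeR, with a median log2 difference of -1.98. Among all genes 2.87% were lower. Of the 31 genes that reached the filter on low counts without the day 7 libraries, 24 were lower. The other 9 reached it only through day 7, so that a difference from day 7 was built into their selection, and 8 of them were lower. In 38 of the 40 genes no day 14 library reached the lowest day 7 library.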

How the results depend on the processing

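The day 7 rise of the mitosis genes kept its direction and its count within 33 to 39 under every alternative run. With the replicate block it was 38, with the length and GC correction 38, and with both 37. The median log2 change over omissions of single libraries was 2.42 to 2.91 at day 7, 0.43 to 0.75 at day 14 against control and -2.15 to -1.78 for day 14 against day 7. Higher mitosis genes at day 14 against control numbered 4 without the filter on low counts, 4 with the DESeq2 Wald test and 0 to 2 over omissions. Lower ones at day 14 against day 7 numbered 27 with the replicate block, 18 at an adjusted p under 0.01 and 16 to 35 over omissions.

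Counts over all genes moved more. For day 7 against control they were 2631 at an adjusted p under 0.01, 547 with an absolute log2 change over 1 and 3106 to 5314 over omissions. For day 14 against control they were 1300 without the filter, 973 with DESeq2, 852 with limma-voom, 157 with only the 6 libraries compared (where 32 of the 40 genes were tested), 113 with the replicate block, 148 with the length and GC correction, 118 with both, 11 at an adjusted p under 0.01, 35 with an absolute log2 change over 1 and 13 to 1937 over omissions, the highest without the third control library. For day 14 against day 7 they were 1690 with limma-voom, 264 at an adjusted p under 0.01, 212 with an absolute log2 change over 1 and 330 to 1415 over omissions. The stricter thresholds give fewer calls by construction; the cause of the other shifts was not tested.

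Among the 40 genes, changes of sign occurred only for day 14 against control, in genes that did not pass: with limma-voom Cdk1 at -0.05 and Bub1b at 0.05, with the length and GC correction Hmmr at -0.06 and Cdca8 at -0.01, and with the block added Hmmr at -0.08 and Cdca8 at -0.01. Over omissions, Birc5 ran from -0.43 to 0.43, Bub1 from -1.80 to 0.38, Bub1b from -0.39 to 0.16, Ccnb2 from -0.31 to 0.89, Cdca3 from -0.34 to 0.45, Cdca8 from -0.11 to 0.37, Cdk1 from -0.47 to 0.70, Hmmr from -0.29 to 0.45 and Kif2c from -0.22 to 0.69. The libraries share only a number: same-numbered libraries had correlations of -0.112 to 0.0367, and the block is given for completeness. Depth limits the lowest genes, since 3 counts stand for up to 0.188 CPM and 13 of the 40 genes were under 1 CPM in every control.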
